A study of Homo sapiens with 6 samples.

Results

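The BCL2 family and its BH3-only relatives set the threshold for apoptosis at the mitochondrion, and 10 of these genes were followed by symbol in KhES-1 cells, out of 23346 gene rows in the table. The members were 5 BH3-only genes (BMF, PMAIP1, BBC3, BIK and BCL2L11), the 2 effectors BAX and BAK1, and 3 antiapoptotic genes (BCL2, BCL2L1 and MCL1). KhES-1 is an established human embryonic stem cell line. It was grown on a laminin fragment (0.5 µg per square cm) in AKIT or in Essential 8 (E8), and both media shared the line and the coating. E8, the control medium, supplies FGF2 and TGF-beta to the cells. AKIT is known for supplying inhibitors of GSK3, DYRK kinases and calcineurin instead. The series holds 3 samples per medium. All AKIT samples and E8 replicates 1 and 2 entered the comparison, while the last E8 sample was not analysed here. The labels name no genetic change, passage or time in the media, and leave unsaid whether replicates came from separate cultures. The p-values therefore weigh the difference between media only against the spread among these samples, pooled in part over genes. That spread may be technical.

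Antiapoptotic proteins such as BCL2, BCL-XL (from BCL2L1) and MCL1 hold the effectors BAX and BAK in check, and BH3-only proteins relieve that block by binding the antiapoptotic proteins or by activating the effectors directly. Once BAX or BAK oligomerises, the outer mitochondrial membrane becomes permeable and cytochrome c reaches the cytosol, where it drives caspase activation. Human embryonic stem cells are known for a low threshold for this mitochondrial route.

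Expression is given in RPKM, read counts scaled to gene length and library depth, as the authors deposited it. A log2 difference is the AKIT mean of log2(RPKM + 1) less the E8 mean, a scale that shrinks the changes of weakly expressed genes, and it is followed by the standard error of limma's moderated test. Genes "rose" or "fell" where the Benjamini-Hochberg adjusted p, taken over the 14776 genes whose mean reached 0.5 RPKM, was under 0.05. The SD behind each ± of a mean has n = 3 in AKIT and n = 2 in E8.

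Start regions are shown first for 4 members that differ in role and in direction. Among the 10 members, BMF and PMAIP1 had the largest falls in AKIT, BAX had the largest called rise, and BCL2L11 was the one BH3-only gene with a higher mean in AKIT. Each line gives the 250 bases before the first start that RefSeq lists on GRCh38.p14, read 5′ to 3′ on the gene's own strand. They lie at chr15:40108880-40109129 (minus strand), chr18:59899746-59899995 (plus), chr19:48954625-48954874 (plus) and chr2:111120664-111120913 (plus). Capitals mark the letters searched on both strands: the GC box GGGCGG, the E-box CACGTG, the CCAAT box CCAAT, the FOXO motif GTAAACA and TGACGT, the core of the cAMP response element (CRE). No base of these windows belonged to 2 motifs.
BMF: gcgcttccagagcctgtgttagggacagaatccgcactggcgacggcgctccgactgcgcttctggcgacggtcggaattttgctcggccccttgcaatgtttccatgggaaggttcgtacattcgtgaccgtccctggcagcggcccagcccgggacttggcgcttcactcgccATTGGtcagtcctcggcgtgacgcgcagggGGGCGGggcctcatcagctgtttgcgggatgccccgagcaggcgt
PMAIP1: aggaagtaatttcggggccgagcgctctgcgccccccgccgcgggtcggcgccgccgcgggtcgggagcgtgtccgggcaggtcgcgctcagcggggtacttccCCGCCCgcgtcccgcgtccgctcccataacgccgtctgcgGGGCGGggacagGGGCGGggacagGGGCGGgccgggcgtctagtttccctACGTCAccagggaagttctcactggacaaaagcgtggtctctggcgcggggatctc
BAX: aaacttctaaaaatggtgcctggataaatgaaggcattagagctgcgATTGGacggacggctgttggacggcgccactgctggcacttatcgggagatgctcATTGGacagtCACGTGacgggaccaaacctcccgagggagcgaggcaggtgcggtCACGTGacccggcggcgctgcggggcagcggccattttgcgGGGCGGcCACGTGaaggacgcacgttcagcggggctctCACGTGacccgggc
BCL2L11: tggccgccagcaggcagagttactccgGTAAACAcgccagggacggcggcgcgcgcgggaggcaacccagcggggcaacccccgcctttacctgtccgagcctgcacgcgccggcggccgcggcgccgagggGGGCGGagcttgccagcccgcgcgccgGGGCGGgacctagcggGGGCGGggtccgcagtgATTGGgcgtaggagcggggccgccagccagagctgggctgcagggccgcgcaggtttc

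Of the 10 members, 8 had an entry among 35116 RefSeq windows of this length, and BIK and MCL1 had none. A GC box stood in 5 of the 8 first windows and in 42.6% of all windows, and a CCAAT box in 5 of 8 and in 32.01%. PMAIP1 held 4 GC boxes, and 7.63% of all windows held at least as many. It also held the CRE core at bases 56 to 51 before the start, which 7.10% of windows held. BCL2L11 alone of the 8 held the FOXO motif, at bases 223 to 217 before the start, and 2.98% of all windows held it. BAX held 4 copies of the E-box, which 6.34% of windows held at least once. Its window was among 5 windows of the 35116 that held it 4 times or more. An E-box stood in 2 of the 8 first windows, and the other was that of BBC3, with 1 copy. The counts of copies were chosen after the letters were seen. A match describes letters only, and no binding was measured here.

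Of the 10 members, all of which passed the filter on low values, 4 fell (BMF, PMAIP1, BBC3 and BIK), 2 rose (BAX and BAK1) and 4 did not pass the test. Among all genes tested, 20.0% were called, 8.22% as rises and 11.7% as falls. The libraries of the 2 media did not overlap for 9 of the 10 members, all but BCL2, against 54.4% of all genes tested. AKIT was the higher medium for 3 of these (25.8% of all genes) and the lower for 6 (28.6%). The median log2 difference over the members was -0.25, and over all genes tested -0.0096. By role, 4 of 5 BH3-only members fell, both effector members rose and 0 of 3 antiapoptotic members passed, a count with no test of its own. A replicate block left BMF and PMAIP1 as the only called members. With either E8 library left out, BMF and PMAIP1 were the only members called.

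**Figure D1:**
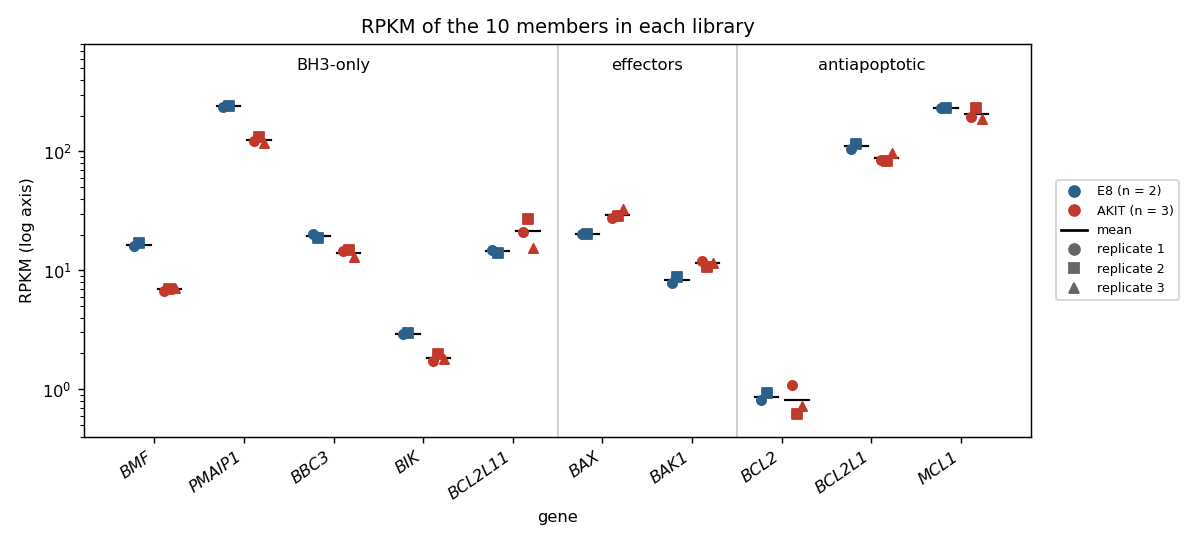
RPKM on a log axis for the 10 members, grouped by role, with 1 point per library (blue for E8, n = 2, and red for AKIT, n = 3, with the shape giving the replicate) and a bar at each mean. BMF and PMAIP1 sit lower in every AKIT library than in either E8 library, and BAX and BAK1 sit higher.

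BMF, a BH3-only protein tethered by dynein light chain and released by loss of attachment, had the largest change of the 10 members. It stood at 16.0 and 16.9 RPKM in E8 replicates 1 and 2 and at 6.75, 7.02 and 7.04 RPKM in AKIT replicates 1, 2 and 3. The AKIT libraries lay close together, and all were far below both E8 libraries. The mean fell from 16.4 ± 0.620 to 6.93 ± 0.162 RPKM, 2.37-fold, with a log2 difference of -1.14 ± 0.10 (limma adjusted p = 0.00136). The values rested on 651 to 778 reads per AKIT library and 1307 and 1347 reads per E8 library. BMF remained called under each of the 12 alternatives tried, with log2 differences from -1.25 to -1.10.

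PMAIP1 encodes NOXA, a BH3-only protein that binds MCL1 preferentially. Its level was 234 and 243 RPKM in E8 and 122, 132 and 117 RPKM in AKIT replicates 1, 2 and 3. No AKIT library came near the lower E8 library. PMAIP1 fell from 239 ± 6.12 to 124 ± 7.82 RPKM, 1.93-fold (log2 difference -0.95 ± 0.10, limma adjusted p = 0.00212), on 4389 to 8014 reads per library. It too remained called under each of the 12 alternatives, with adjusted p from 0.000473 to 0.0464. In E8 it was the most abundant of the 10 transcripts per length, and in AKIT it ranked below MCL1.

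BBC3, which encodes PUMA, a BH3-only protein able to bind every main antiapoptotic protein, changed less. Its values were 20.1 and 18.8 RPKM in E8 and 14.5, 14.7 and 13.04 RPKM in AKIT. The groups were separate, by a margin wider than the spread inside either medium. BBC3 fell with a log2 difference of -0.44 ± 0.10 (limma adjusted p = 0.0268). The call ended without AKIT replicate 1 (limma adjusted p = 0.0508), AKIT replicate 3 (0.0643), E8 replicate 1 (0.236) or E8 replicate 2 (0.169), within 0.0143 to 0.236 over all alternatives, and the difference stayed between -0.48 and -0.39.

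BIK, a BH3-only protein of the endoplasmic reticulum, was the least abundant BH3-only member. It had 2.91 and 2.97 RPKM in E8 and 1.71, 1.98 and 1.79 RPKM in AKIT, from 49 and 46 reads in E8 and 38, 44 and 33 reads in AKIT. All AKIT values lay below both E8 values, but the read counts were few. BIK fell by 0.48 ± 0.12 on the log2 scale (limma adjusted p = 0.0351). With voom on reads recovered from the table the difference was -0.68 and did not pass (limma adjusted p = 0.114), and without the filter on low values adjusted p was 0.0583. Its call also ended without AKIT replicate 1 (limma adjusted p = 0.0767), AKIT replicate 3 (0.0795), E8 replicate 1 (0.217) or E8 replicate 2 (0.237), within 0.0216 to 0.237 over all alternatives.

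BCL2L11, which encodes BIM, a direct activator of BAX and BAK that is transcribed under FOXO factors and degraded after ERK phosphorylation, was the one BH3-only member with a positive difference. It stood at 14.9 and 14.0 RPKM in E8 and at 21.2, 27.0 and 15.5 RPKM in AKIT. AKIT replicate 2 was the highest and replicate 3 lay just above E8 replicate 1. The log2 difference was 0.49 ± 0.21 and did not pass (limma adjusted p = 0.138), with a 95% interval from 0.00093 to 0.98. Without AKIT replicate 3 it was 0.69 and passed (limma adjusted p = 0.0389, within 0.0389 to 0.433 over all alternatives). The row sums all isoforms of BIM, whose differing potency is not visible in it.

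Within the BH3-only group the make-up differed between the media, in the same sense in every library. The ratio of BCL2L11 to BMF in RPKM was 0.932 and 0.830 in E8 and 3.14, 3.85 and 2.21 in AKIT, so BMF exceeded BCL2L11 in both E8 libraries and BCL2L11 exceeded BMF in all 3 AKIT libraries. This pair was not part of the plan. It joins the member with the largest fall to the one BH3-only member with a positive difference, so its separation follows from the choice and is no separate result. PMAIP1 made up 81.3% and 82.2% of the summed BH3-only RPKM in E8 and 73.4%, 72.3% and 75.8% in AKIT. BCL2L11 made up 5.17% and 4.74% in E8 and 12.8%, 14.8% and 10.1% in AKIT. These are shares of a sum that itself fell, from a mean of 292 RPKM in E8 to 168 RPKM in AKIT, while PMAIP1 fell from 239 to 124 RPKM. The share of BCL2L11 would therefore rise even with BCL2L11 unchanged, and BCL2L11 itself did not pass. No test was run on these shares.

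Both effectors rose. BAX, a mostly cytosolic effector that moves to mitochondria, had 20.3 and 20.3 RPKM in E8 and 27.4, 28.4 and 32.5 RPKM in AKIT. Every AKIT library was above both E8 libraries, which differed little from each other. BAX rose from 20.3 ± 0.0366 to 29.4 ± 2.70 RPKM, with a log2 difference of 0.51 ± 0.11 (limma adjusted p = 0.0191). With a replicate block it was 0.44 and did not pass (limma adjusted p = 0.0785). The difference stayed at 0.51 without either E8 library but no longer passed (limma adjusted p = 0.164 in both cases, within 0.0121 to 0.164 over all alternatives).

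BAK1 encodes BAK, the effector that resides in the outer mitochondrial membrane. It had 7.77 and 8.70 RPKM in E8 and 12.1, 10.6 and 11.6 RPKM in AKIT. The lowest AKIT library was above the higher E8 library. BAK1 rose by 0.43 ± 0.11 on the log2 scale (limma adjusted p = 0.0362), from 8.24 ± 0.657 to 11.4 ± 0.724 RPKM. Its call ended without the filter on low values (limma adjusted p = 0.0513), without AKIT replicate 1 (0.0828), AKIT replicate 3 (0.0864), E8 replicate 1 (0.285) or E8 replicate 2 (0.166), within 0.0161 to 0.285 over all alternatives. GENCODE release 29 names 2 processed pseudogene copies, BAK1P1 and BAK1P2, neither of which has a row in the table, so reads of such copies and of BAK1 cannot be told apart here. The ratio of BAX to BAK1 was 2.61 and 2.34 in E8 and 2.27, 2.67 and 2.80 in AKIT, and the media overlapped in this ratio.

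None of the antiapoptotic members passed the test. MCL1, a short-lived protein on which many pluripotent cells depend, stood at 231 and 231 RPKM in E8 and at 196, 229.8 and 189 RPKM in AKIT. AKIT replicate 2 was close to E8 and the other AKIT libraries were lower. The log2 difference was -0.18 ± 0.12 (limma adjusted p = 0.312), with a 95% interval from -0.45 to 0.10. Without AKIT replicate 2 it was -0.26 and passed (limma adjusted p = 0.0371, within 0.0371 to 0.641 over all alternatives).

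BCL2L1, the source of BCL-XL and of the shorter proapoptotic BCL-XS, had 105 and 115 RPKM in E8 and 84.3, 83.6 and 97.8 RPKM in AKIT. All AKIT libraries were lower than both E8 libraries. The log2 difference of -0.31 ± 0.11 did not pass (limma adjusted p = 0.0892, within 0.0616 to 0.461 over all alternatives), and its 95% interval ran from -0.57 to -0.05. BCL2 itself was the lowest of the 10, at 0.804 and 0.930 RPKM in E8 and 1.09, 0.623 and 0.724 RPKM in AKIT. The media overlapped, with AKIT replicate 1 above and replicates 2 and 3 below both E8 libraries. Its log2 difference was -0.050 ± 0.16 (limma adjusted p = 0.849, 95% interval -0.43 to 0.33), on 93 to 168 reads per library, and it turned to 0.025 without AKIT replicate 2.

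**Figure D2:**
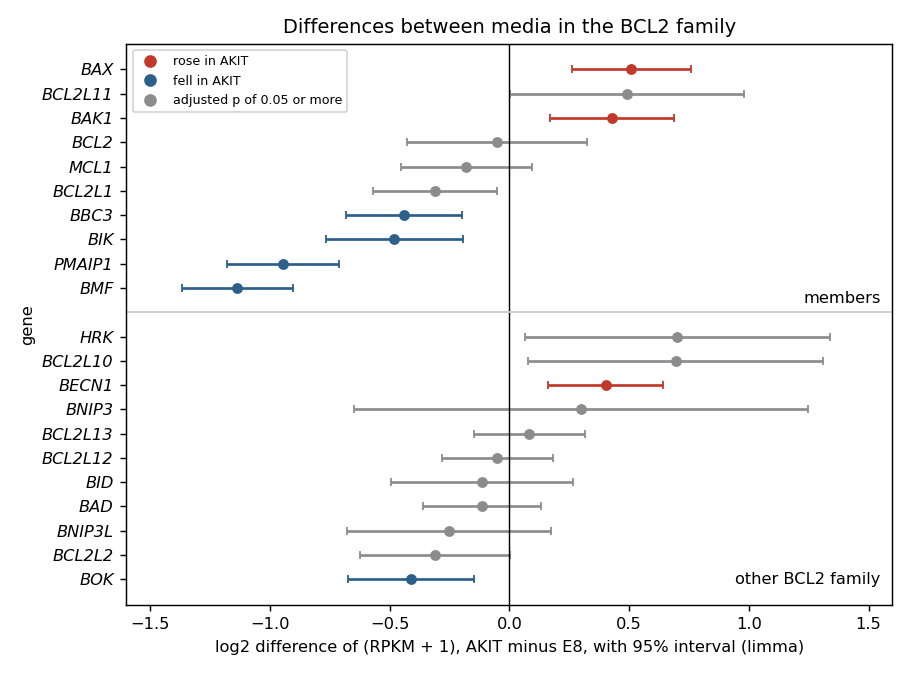
Log2 difference of (RPKM + 1), AKIT minus E8, with limma's 95% interval, for the 10 members (upper block) and 11 tested other genes of the family (lower block), coloured by call. BMF and PMAIP1 lie farthest to the left of both blocks, and BAX and BAK1 lie to the right of 0.

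Per length, the order of the members in E8 was PMAIP1, MCL1, BCL2L1, BAX, BBC3, BMF, BCL2L11, BAK1, BIK and BCL2. In AKIT it was MCL1, PMAIP1, BCL2L1, BAX, BCL2L11, BBC3, BAK1, BMF, BIK and BCL2. The ranges of neighbouring genes did not overlap between libraries of 1 medium, but in E8 the means of BAX and BBC3 differed by 0.870 RPKM, less than the SD of BBC3. PMAIP1 and MCL1 in E8 differed by 7.59 RPKM, with an SD of 6.12 for PMAIP1. BMF moved from the sixth to the eighth place, below BAK1, and BCL2L11 from the seventh to the fifth. The position of a gene in this order rests on the length the authors used for its row, which need not be that of the isoform expressed.

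Summed over the 5 BH3-only genes, RPKM was 288 and 296 in E8 and 166, 183 and 154 in AKIT, and summed over the 3 antiapoptotic genes 337 and 347 in E8 and 281, 314 and 287 in AKIT. The ratio of the first sum to the second was 0.856 and 0.852 in E8 and 0.589, 0.582 and 0.537 in AKIT. Each AKIT library was thus below both E8 libraries, by more than the spread within either medium. On the log2 scale the difference of the means was -0.59, and it was -0.32 when the mean of the members' log2 values was used in place of sums. PMAIP1 carried most of it: with PMAIP1 left out, a choice made after seeing the data, the ratio was 0.160 and 0.152 in E8 and 0.157, 0.162 and 0.130 in AKIT, and the log2 difference was -0.066.

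For the effectors, the ratio to the antiapoptotic sum moved the other way. It was 0.0833 and 0.0837 in E8 and 0.140, 0.124 and 0.153 in AKIT, a log2 difference of 0.73 between the means. All 3 AKIT libraries were higher than both E8 libraries. PMAIP1 over MCL1, a pair whose proteins bind each other, was 1.015 and 1.05 in E8 and 0.621, 0.575 and 0.619 in AKIT. The antiapoptotic sum itself kept its make-up: MCL1 was 68.6% and 66.7% of it in E8 and 69.6%, 73.2% and 65.7% in AKIT, and BCL2 at most 0.388% in any library. These ratios are of transcripts, carry no test, and were formed over genes chosen with results of these data known.

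**Figure D3:**
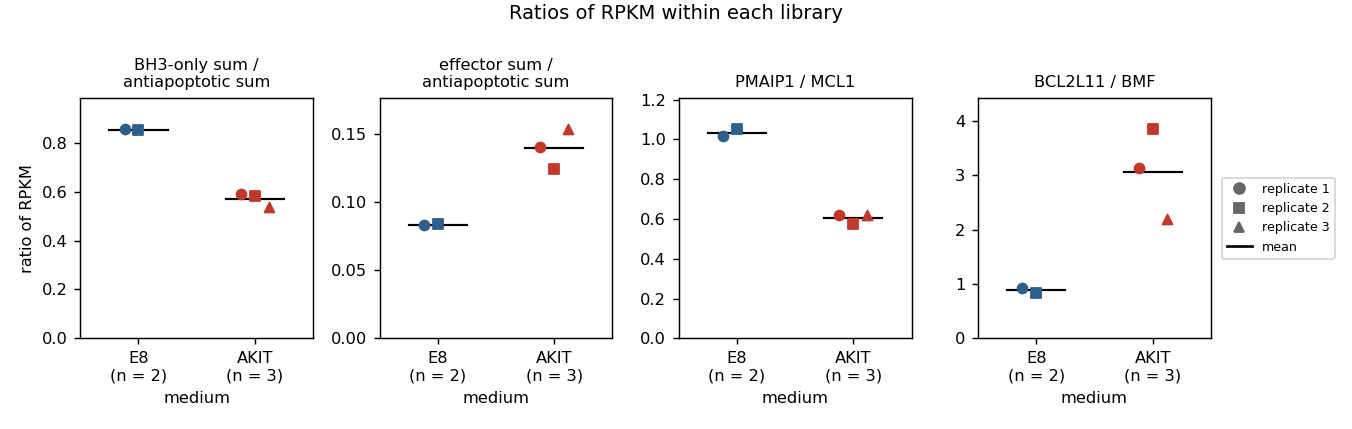
Ratios of RPKM within each library, from 0 upward, in E8 (blue, n = 2) and AKIT (red, n = 3), with the shape giving the replicate and a bar at the mean. BH3-only over antiapoptotic lies at 0.852 and 0.856 in E8 and between 0.537 and 0.589 in AKIT, while effectors over antiapoptotic and BCL2L11 over BMF are higher in each AKIT library than in either E8 library. The pairs BCL2L11 over BMF and PMAIP1 over MCL1 were not part of the plan.

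Of 14 further family members, 11 were tested, 1 rose and 1 fell, and their median log2 difference was -0.050. BOK, an effector-like relative of BAX and BAK, had 24.7 and 24.0 RPKM in E8 and 20.3, 16.8 and 17.3 RPKM in AKIT. It thus fell, opposite in sign to BAX and BAK1 (log2 difference -0.41 ± 0.11, limma adjusted p = 0.0430), a call that ended under 7 of its 12 alternatives, among them median-of-ratios scaling (0.0515) and leaving out AKIT replicate 3 (0.103), E8 replicate 1 (0.270) or E8 replicate 2 (0.237), with adjusted p from 0.0313 to 0.270. BECN1, an autophagy protein with a BH3 domain, rose by 0.40 ± 0.10 (limma adjusted p = 0.0357), which ended without any 1 library other than AKIT replicate 2 (0.0570 to 0.300).

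BCL2A1 was at 0 in all 5 libraries, and BCL2L14 and BCL2L15 stayed below the filter. BID, the BH3-only protein cleaved by caspase-8, stood at 8.69 and 7.87 RPKM in E8 and 7.52, 6.22 and 9.21 RPKM in AKIT, with overlap. BAD, the BH3-only protein regulated by AKT, stood at 13.1 and 12.6 RPKM in E8 and 12.4, 10.9 and 12.2 RPKM in AKIT (log2 difference -0.12, limma adjusted p = 0.468). HRK and BCL2L10 lay higher in the AKIT mean by 0.70 and 0.69 and did not pass (limma adjusted p = 0.110 and 0.105). BID, BAD, HRK and BCL2L10 were chosen after their values were seen.

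These 14 genes and 6 further lists of cell death genes held 89 genes beside the members, of which 82 were tested, 9 rose and 8 fell. That is 20.7% called, against 20.0% of all genes tested, a share near that background. By direction, 8.22% of all genes tested rose and 11.7% fell. The counts per list rest on few genes and carry no test of their own. Downstream of the mitochondrion, 2 of 10 genes of the cytochrome c and caspase list rose and 0 fell, with a list median of 0.10. CYCS, cytochrome c itself, rose from 34.3 and 32.2 RPKM in E8 to 63.6, 56.4 and 63.8 RPKM in AKIT (log2 difference 0.86 ± 0.10, limma adjusted p = 0.00297). Without E8 replicate 2 its difference was 0.82 with adjusted p = 0.0562, within 0.000806 to 0.0562 over all alternatives. DFFA, the inhibitor of the caspase-activated DNase, rose by 0.33 ± 0.09 (limma adjusted p = 0.0481), and this ended without the trend (0.0691) or without any 1 library other than AKIT replicate 2 (0.0952 to 0.350). APAF1 and CASP9 did not pass.

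Among released factors and inhibitors of apoptosis, 3 of 8 tested genes rose and 0 fell (median 0.15), against 8.22% and 11.7% of all genes tested. XIAP, a direct caspase inhibitor, rose from 19.8 and 19.7 RPKM in E8 to 31.3, 31.2 and 28.0 RPKM in AKIT (log2 difference 0.59 ± 0.10, limma adjusted p = 0.00901). BIRC6, a giant inhibitor of apoptosis, rose by 0.58 ± 0.13 (limma adjusted p = 0.0227), and AIFM1, a flavoprotein of the intermembrane space, by 0.53 ± 0.12 (0.0260). With E8 replicate 1 or 2 left out these 3 rises stayed between 0.47 and 0.59 and did not pass (limma adjusted p = 0.109 to 0.217). BIRC6 also did not pass without AKIT replicate 3 (0.0657), nor AIFM1 without AKIT replicate 1 (0.0652) or 3 (0.0718).

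In the list of BCL2 partners and turnover factors, 1 of 12 rose and 1 fell (median 0.20). VDAC1, the main voltage-dependent channel of the outer membrane, rose from 93.3 and 96.6 RPKM in E8 to 139, 130.2 and 151 RPKM in AKIT (0.55 ± 0.10, limma adjusted p = 0.0128). DYNLL2, the dynein light chain that binds BMF, fell from 163 and 159 RPKM to 112, 105 and 120.03 RPKM (-0.52 ± 0.10, limma adjusted p = 0.0147). BMF and the partner that tethers it were thus both lower in every AKIT library. Of all genes tested, 28.6% were lower in AKIT without overlap. DYNLL1, the light chain linked to BIM, was lower in every AKIT library too, though AKIT replicate 3 (149 RPKM) lay close to E8. It was at 150.1 ± 0.124 RPKM in E8 and 131 ± 20.04 in AKIT and did not pass (limma adjusted p = 0.331). Without E8 replicate 1 or 2 neither VDAC1 (0.153 and 0.131) nor DYNLL2 (0.164 and 0.147) passed in limma.

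Of 12 death receptor genes, 2 fell and 0 rose (median -0.15), against 11.7% and 8.22% of all genes tested. TNFRSF1A, the main TNF receptor, had the largest change of all the lists, from 17.6 and 14.2 RPKM in E8 to 3.94, 4.52 and 4.77 RPKM in AKIT (log2 difference -1.64 ± 0.13, limma adjusted p = 0.00110), and it remained called under all 12 alternatives. RIPK1, the kinase recruited to that receptor, fell by 0.75 ± 0.16 on the log2 scale (limma adjusted p = 0.0209). Its call ended without E8 replicate 1 (0.136) or 2 (0.160).

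Among 13 tested transcription regulators of these genes, 1 rose and 4 fell (median -0.18), against 8.22% and 11.7% of all genes tested. FOXO4 rose from 36.2 and 34.7 RPKM in E8 to 76.4, 84.4 and 92.8 RPKM in AKIT (log2 difference 1.23 ± 0.11, limma adjusted p = 0.00145), while FOXO1 fell from 48.8 and 52.4 to 22.5, 24.6 and 26.2 RPKM (-1.02 ± 0.10, limma adjusted p = 0.00189). Both FOXO factors, which share a DNA motif, remained called under all 12 alternatives, in opposite directions. FOXO3 did not pass. MYCN fell by 0.94 ± 0.15 and MYC by 0.87 ± 0.24 on the log2 scale (limma adjusted p = 0.00779 and 0.0442). MYC reached 125 RPKM in AKIT replicate 2 and 70.2 and 74.5 RPKM in the other AKIT libraries. The call of MYCN ended without E8 replicate 1 (0.0795) or 2 (0.0868), and that of MYC without the filter (0.0815), without the trend (0.0538) or without any 1 library other than AKIT replicate 2 (0.105 to 0.229). The fourth fall, TRIB3, was named after its values were seen (-0.75 ± 0.20, limma adjusted p = 0.0391), and its call ended under 5 of 12 alternatives (adjusted p up to 0.231).

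Of 19 tested genes on a list of damage-induced genes, 1 rose and 0 fell (median 0.063). AEN, an apoptosis-enhancing nuclease, rose from 112 and 107 to 177, 179 and 182 RPKM (log2 difference 0.71 ± 0.09, limma adjusted p = 0.00374), and it no longer passed without E8 replicate 1 (0.0671) or 2 (0.0838). CDKN1A, a cell cycle inhibitor, did not pass (0.53 ± 0.29, limma adjusted p = 0.233).

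**Figure D4:**
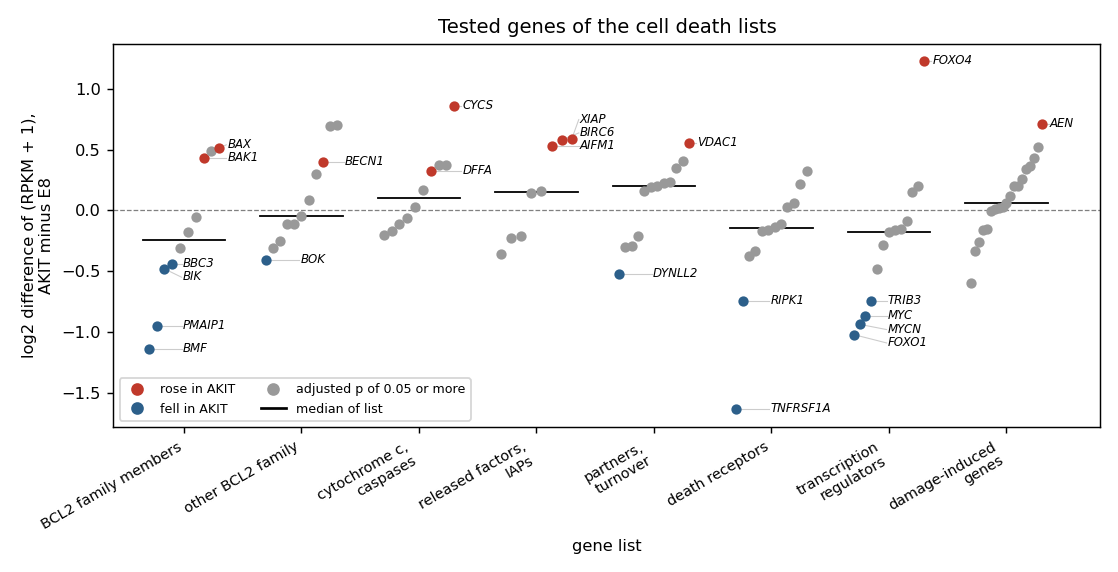
Log2 difference of (RPKM + 1), AKIT minus E8, for each tested gene of the members' list and of the 7 other lists, 1 point per gene, coloured by call, with a bar at each list's median. The list medians lie between -0.25 and 0.20, and TNFRSF1A and FOXO4 lie farthest from 0.

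By library profile, the genes most like BMF, the called member with the smallest p, were GABRP, NLGN1 and P4HTM. GABRP encodes a GABA receptor subunit, NLGN1 a synaptic adhesion protein and P4HTM a transmembrane prolyl hydroxylase. The root mean square difference from BMF, over 5 libraries of log2(RPKM + 1) values centred on each gene's mean, was 0.0490, 0.04997 and 0.0595 respectively, the smallest among 9939 genes whose mean reached 5 RPKM in 1 of the media. GABRP fell from 7.94 ± 0.115 to 3.25 ± 0.245 RPKM (-1.07 ± 0.11), NLGN1 from 5.98 ± 0.293 to 2.17 ± 0.229 (-1.14 ± 0.12) and P4HTM from 7.79 ± 0.350 to 3.33 ± 0.0718 (-1.02 ± 0.11). These genes were picked for a profile like that of BMF, so their falls follow from the choice and are no separate result. Each reached 5 RPKM in E8 alone.

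Depth ran from 16242865 to 23263097 reads per library, with E8 below AKIT. The first principal component separated the media (66.5% of the variance) and the second (17.2%) set AKIT replicate 2 apart. Of 8 pluripotency markers, POU5F1 and NANOG did not pass and SOX2 fell, and their summed level was 2829 to 2918 RPKM in AKIT and 3167 and 3179 RPKM in E8. The summed level of 8 fibroblast markers was 52.7 to 64.1 RPKM in AKIT and 70.2 and 73.7 RPKM in E8. Within that list COL3A1 was at 5.63, 2.15 and 0.141 RPKM and LUM at 5.81, 1.83 and 0.0244 RPKM in AKIT replicates 1, 2 and 3, while in E8 LUM and DCN were at 0, and neither COL3A1 nor LUM passed (limma adjusted p = 0.140 and 0.178). The 2 called genes of that list fell, PDGFRB from 3.40 to 1.015 RPKM (-1.15, limma adjusted p = 0.00992) and COL1A1 from 53.7 to 37.7 RPKM (-0.51, limma adjusted p = 0.0314). The summed level of 10 markers of early lineages was 4.51 to 10.3 RPKM in AKIT and 4.74 and 3.87 RPKM in E8. Of these, MIXL1 was at 3.45, 2.03 and 1.62 RPKM in AKIT and 1.22 and 0.617 RPKM in E8, and did not pass (limma adjusted p = 0.0681). T, below the filter, was at 1.11, 0.837 and 0.348 RPKM in AKIT and 0.0450 and 0.0489 RPKM in E8. GATA4 and GATA6, also below the filter, were higher in every AKIT library too, and the remaining markers overlapped between the media. The part of these markers in the members' differences was not tested. In bulk RNA, fewer cells of a type and less RNA per cell cannot be told apart.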

How the data were processed

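Total RNA was column-purified and sequenced as Illumina libraries, per the labels' protocols. The values are RPKM as the authors deposited them, 1 column per library, matched to samples by title. For builds, hg19 and GRCh37 are listed in the submitters' processing notes. Strand use, annotation, aligner and counter were not given in the sources used here. Reads in exons shared by a member and an antisense partner (BMF-AS1, MIR4435-2HG beside BCL2L11, GGNBP1 beside BAK1, ABALON beside BCL2L1, MIR3190 beside BBC3, in GENCODE release 29) therefore cannot be told apart. GGNBP1 and MIR3190 have rows of their own, with means of 0.0396 and 2.77 RPKM, and the other partners have no row under these names. Gene coordinates are given for promoter windows alone, on GRCh38.p14, which is not the build of the values.

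Low values within a gene are whole multiples of 1 read. Reads were recovered from these steps for 19891 of 19892 gene rows above 0 (tolerance 0.02 reads), for depth and 1 alternative. In a row of 1 kb, 1 read is worth 0.0430 to 0.0616 RPKM. Each library was counted as 1 replicate. The mean chi-square per gene was 3.45 between the E8 libraries and 17.7 to 33.9 between AKIT libraries. These values do not show whether replicates came from separate cultures. The limma test took 1 variance per gene for both media, although the E8 libraries differed less from each other.

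Under R 4.3.3, limma 3.58.1 was run with a trend of variance on level, on log2(RPKM + 1), as a two-sided test with no covariate, adjusted by Benjamini-Hochberg over 14776 genes, and was tested on simulated data. The plan took every AKIT and E8 library with a column of values. That gave 3 against 2 libraries, since E8 replicate 3 had no column. Alternatives were a pseudocount of 0.1, no trend, median-of-ratios scaling, no filter, a filter at a mean of 2 RPKM, voom on recovered reads, a replicate block, and each library left out. Values of some listed genes are not reported here. The members and lists were chosen with earlier results of these data known. Beside the members, up to 4 called genes with the largest difference were named per list, and the 3 genes most like the called member with the smallest p.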

Additional observations from a re-analysis of the deposited data

How the results depend on the processing

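Over the 10 members and 12 alternatives, 119 values were computed, since BCL2 could not be tested at a minimum mean of 2 RPKM. Of these, 95 kept the sign and the side of the threshold, 21 lost the call, 2 gained one (BCL2L11 and MCL1, with 1 AKIT library left out) and 1 turned sign: with a library left out, BCL2 ran from -0.16 to 0.025, the latter without AKIT replicate 2. Of 240 values of 20 other named genes, 187 kept both, 53 lost the call and 0 turned. Without the filter, 1 member rose. With each library left out in turn, 0 to 2 members rose and 2 to 5 fell, 1 to 16 other pathway genes rose and 2 to 14 fell, and over all genes 142 to 2132 rose and 250 to 2619 fell. The lowest counts over all genes came with a single E8 library, which is assumed to vary like AKIT, and the highest without AKIT replicate 2. The log2 difference of BH3-only over antiapoptotic genes was -0.32 from mean log2 values and -0.066 without PMAIP1 (chosen after seeing the data), and between -0.61 and -0.54 with a library left out. That of effectors ran from 0.65 to 0.81. Deviations from the group means correlated at -0.00128 for replicate 1 and 0.0254 for replicate 2. With 2 E8 libraries the E8 deviations mirror each other, so these correlations cannot show whether the replicate numbers pair the samples. With a replicate block, 0 members rose and 2 fell (BMF and PMAIP1), 5 other pathway genes rose and 5 fell, and 492 rose and 824 fell over all genes. AKIT replicate 3 has no E8 partner in the block, so it did not enter the difference. The differences thus equalled those without AKIT replicate 3 (BMF -1.15, PMAIP1 -0.91, BAX 0.44) and are no separate check of size. The block ended the calls of BBC3, BIK, BAX and BAK1, and of BOK, BECN1, DFFA, BIRC6, AIFM1, VDAC1, MYC and TRIB3. The causes were not tested. The fewest reads per library stood behind BIK (33 to 49) and BCL2 (93 to 168).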

Other observations

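Some relatives of the family spread widely among the AKIT libraries, and the genes below were picked after their values were seen. BNIP3, a mitophagy receptor with a BH3-like region, had 61.7, 65.5 and 23.7 RPKM in the AKIT libraries (replicates 1, 2 and 3), with 35.8 and 38.5 RPKM in E8, so that AKIT lay on both sides of E8. Its relative BNIP3L stood at 30.7, 35.1 and 22.3 RPKM in AKIT and at 33.8 and 35.4 RPKM in E8. BCL2L11, MCL1, PMAIP1 and BBC3 had the same order of AKIT libraries as BNIP3 and BNIP3L, highest in replicate 2 and lowest in replicate 3. BCL2L1 had the reverse order, but its AKIT replicates 1 and 2 were close, at 84.3 and 83.6 RPKM. HRK, a neuronal BH3-only gene, stood at 1.42, 2.71 and 3.55 RPKM in AKIT and 1.38 and 0.883 RPKM in E8. The antiapoptotic gene BCL2L2 was at 14.5, 13.6 and 10.9 RPKM in AKIT and 16.4 and 16.1 RPKM in E8. Its readthrough row BCL2L2-PABPN1, which shares exons with it, is listed apart in the table, so the split of reads between the rows is uncertain.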
